A study of Homo sapiens with 18 samples.

Results

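The genes CDKN1A, MDM2, GADD45A, BAX, BBC3, XPC, RRM2B, SESN1 and ZMAT3, which the transcription factor p53 is known to activate directly, were followed by RNA sequencing in A375 cells, a human melanoma line with an activating BRAF mutation. They were picked by symbol as known p53 targets, and all 9 were found among the 60594 genes with a value in the table of the drug experiment, as well as in the 3 tables of the hairpin experiments. The gene that encodes p53 is not among them and is not described here. The study asked which transcripts depend on LSD1, the histone demethylase encoded by KDM1A, and on FOSL1, a subunit of the transcription factor AP-1. It holds 18 libraries in 9 groups of 2.

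Group names begin with P, taken to mean parental, or with R, taken to mean resistant to BRAF and MEK inhibitors, a reading that the labels do not spell out. Both lines received DMSO as vehicle (P_DMSO, R_DMSO) or 250 nM dabrafenib, a BRAF inhibitor, together with 10 nM trametinib, a MEK inhibitor (P_DT, R_DT), and the labels give the genotype of these 4 groups as wild type. Lentiviral hairpins were given as a control (P_shCtrl and R_shCtrl) or to deplete LSD1 (P_shLSD1 and R_shLSD1) in both lines, and to deplete FOSL1 in the R line (R_shFosL1). Neither the duration of drug treatment nor the number of hairpins or clones is given in the labels. The labels do not state that the replicates were separate cultures, so p-values measure the spread between these libraries, which may be technical. All levels are FPKM, a measure that divides the fragments of a gene by its length and by the size of the library.

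p53 is kept low in unstressed cells by MDM2, a ubiquitin ligase that is itself a p53 target and so closes a feedback loop. When DNA damage, nucleotide shortage or other stress stabilises p53, it switches on an inhibitor of cyclin-dependent kinases (CDKN1A, which encodes p21), growth arrest and repair genes (GADD45A, XPC, RRM2B), pro-apoptotic genes of the BCL2 family (BAX, BBC3) and genes that restrain growth signalling or act on RNA (SESN1, ZMAT3). Melanomas seldom lose p53 by mutation, and restraint of p53 by MDM2 and MDM4 is well known in this tumour. Several of these genes also answer to p53-independent signals: CDKN1A and GADD45A respond to mitogenic and stress signalling, and BBC3 is known to be induced by stress factors other than p53.

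p53 binds a 20-base consensus made of 2 decamers separated by a short spacer, and the best match in the promoter window of each gene is shown here because the 9 genes were grouped by this factor. RefSeq promoter windows (GRCh38.p14, 250 bases before to 50 bases after each annotated start) were available for 7 of the 9 genes, and both strands were searched for the consensus known as the p53 response element, with a spacer of 0 or 1 base. Sequences are given 5′ to 3′ on the strand of the gene's match, and capitals mark bases that match the consensus.
MDM2: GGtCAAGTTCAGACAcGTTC
XPC: GAAtTTGCCCAGACAAGCaa
SESN1: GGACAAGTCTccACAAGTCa
BAX: GcACTTaTCgGGAgATGCTC
ZMAT3: GGGCcTGCTCcGcCAAGCaC
CDKN1A: tGGCcTGCTgGAACTcGgCC
BBC3: AGtCAAGTTTGAGaAgtCTg
The MDM2 match (chr12:68808923-68808942, plus strand) has 2 mismatches and begins 94 bases before an annotated internal start. The XPC match (chr3:14178570-14178589, minus strand) and the SESN1 match (chr6:109009018-109009037, minus strand) have 3 mismatches each. BAX and ZMAT3 have 4 and CDKN1A and BBC3 have 5. Of 27305 genes with a window, 1.69% hold a match with at most 2 mismatches, 11.9% with at most 3, 46.1% with at most 4 and 88.2% with at most 5, so only the matches of MDM2, XPC and SESN1 are of a kind found in few promoters. A match is a description of letters in a window and no measure of binding. Bases outside these windows were not searched, so a weak best match here says nothing of sites elsewhere in or near a gene.

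The MDM2 match is shown in its surroundings because MDM2 is the feedback gene of the pathway. The 250 bases before the internal start (chr12:68808767-68809016, plus strand, GRCh38.p14) carry the match in capitals.
MDM2 promoter: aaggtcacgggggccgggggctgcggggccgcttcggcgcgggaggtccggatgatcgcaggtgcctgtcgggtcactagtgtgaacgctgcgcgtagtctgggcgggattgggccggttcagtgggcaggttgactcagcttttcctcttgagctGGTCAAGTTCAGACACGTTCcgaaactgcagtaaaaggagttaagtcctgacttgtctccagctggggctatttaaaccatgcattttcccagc

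On hg38 with the GENCODE 29 annotation all 9 genes are protein-coding. CDKN1A lies on chromosome 6 from 36676460 to 36687339, MDM2 on chromosome 12 from 68808176 to 68850686 and GADD45A on chromosome 1 from 67685061 to 67688338, all on the plus strand. BAX (48954815 to 48961798, plus strand) and BBC3 (47220822 to 47232766, minus strand) both lie on chromosome 19. XPC (14145147 to 14178783) and ZMAT3 (179017223 to 179072279) lie on the minus strand of chromosome 3, SESN1 on that of chromosome 6 from 108986437 to 109094819 and RRM2B on that of chromosome 8 from 102204502 to 102239118. The sources do not say whether strand was used in quantification. Overlap was read from whole gene spans, introns included, and shared exon bases were not measured. Reads from bases that MDM2 shares with CPM, AC025423.4 and the pseudogene AC025423.2 may thus have been counted for either gene. The same holds for XPC with LSM3, AC093495.1 and AC090004.1, and for SESN1 with AL390208.1.

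Total FPKM per library ran from 556375 to 814364, and 13920 to 15313 genes reached 1 FPKM in a library. In 7 libraries whole-fragment steps could be read in the values, which put their depth at 8.08 to 10.9 M fragments if fragments are taken as 250 bases long. Replicate 1 and replicate 2 of P_DMSO lay further apart than other replicates, with an SD of 0.73 for the log2 difference between replicates over genes of mean 5 FPKM or more, against 0.40 to 0.50 in the other groups. The hairpins were checked first. KDM1A was at 78.1 and 72.4 FPKM in P_shCtrl against 9.54 and 6.73 FPKM in P_shLSD1, and at 73.3 and 76.5 FPKM in R_shCtrl against 10.1 and 11.1 FPKM in R_shLSD1, so it fell by 3.08 ± 0.20 (SE; adjusted p = 0.016) and by 2.71 ± 0.10 (adjusted p = 0.00094) on the log2 scale. The summed level of 8 melanocytic markers was 106 to 452 FPKM in the 8 P libraries and 17.9 to 58.3 FPKM in the 10 R libraries, where SOX10 was listed at 0 in every group but R_DT and TYR was listed at 0 in both lines. The summed markers of other cell types reached 126 FPKM for leukocytes (nearly all of it CD68, with PTPRC near 0), 139 FPKM for keratinocytes, 58.9 FPKM for fibroblasts and 7.82 FPKM for endothelium, and their part in the results was not tested. In such bulk samples fewer cells of a type and less RNA per cell cannot be told apart.

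Over the 18 libraries BBC3 spanned the widest range, from 2.85 to 28.9 FPKM, a 10.1-fold difference between the lowest and the highest library. GADD45A spanned 8.59-fold (15.3 to 132 FPKM), RRM2B 7.73-fold (7.17 to 55.4 FPKM), CDKN1A 7.63-fold (26.8 to 204 FPKM) and ZMAT3 6.0-fold (3.01 to 18.05 FPKM). XPC, MDM2 and BAX spanned 4.77-fold, 4.06-fold and 4.04-fold. SESN1 had the narrowest range, from 3.90 to 9.13 FPKM or 2.34-fold. Per length, BAX, CDKN1A and GADD45A were thus the more abundant transcripts and SESN1, BBC3 and ZMAT3 the scarcer ones. R_DT had the highest group mean for CDKN1A, BBC3, RRM2B, SESN1 and ZMAT3, with both its libraries above those of the next group in the order. For SESN1 the highest single library was R_shLSD1 replicate 1, at 9.13 FPKM against 8.94 and 9.07 FPKM in R_DT. R_shLSD1 had the lowest group mean for CDKN1A, MDM2, BBC3 and XPC. These orders cross tables that the authors made separately.

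**Figure D1:**
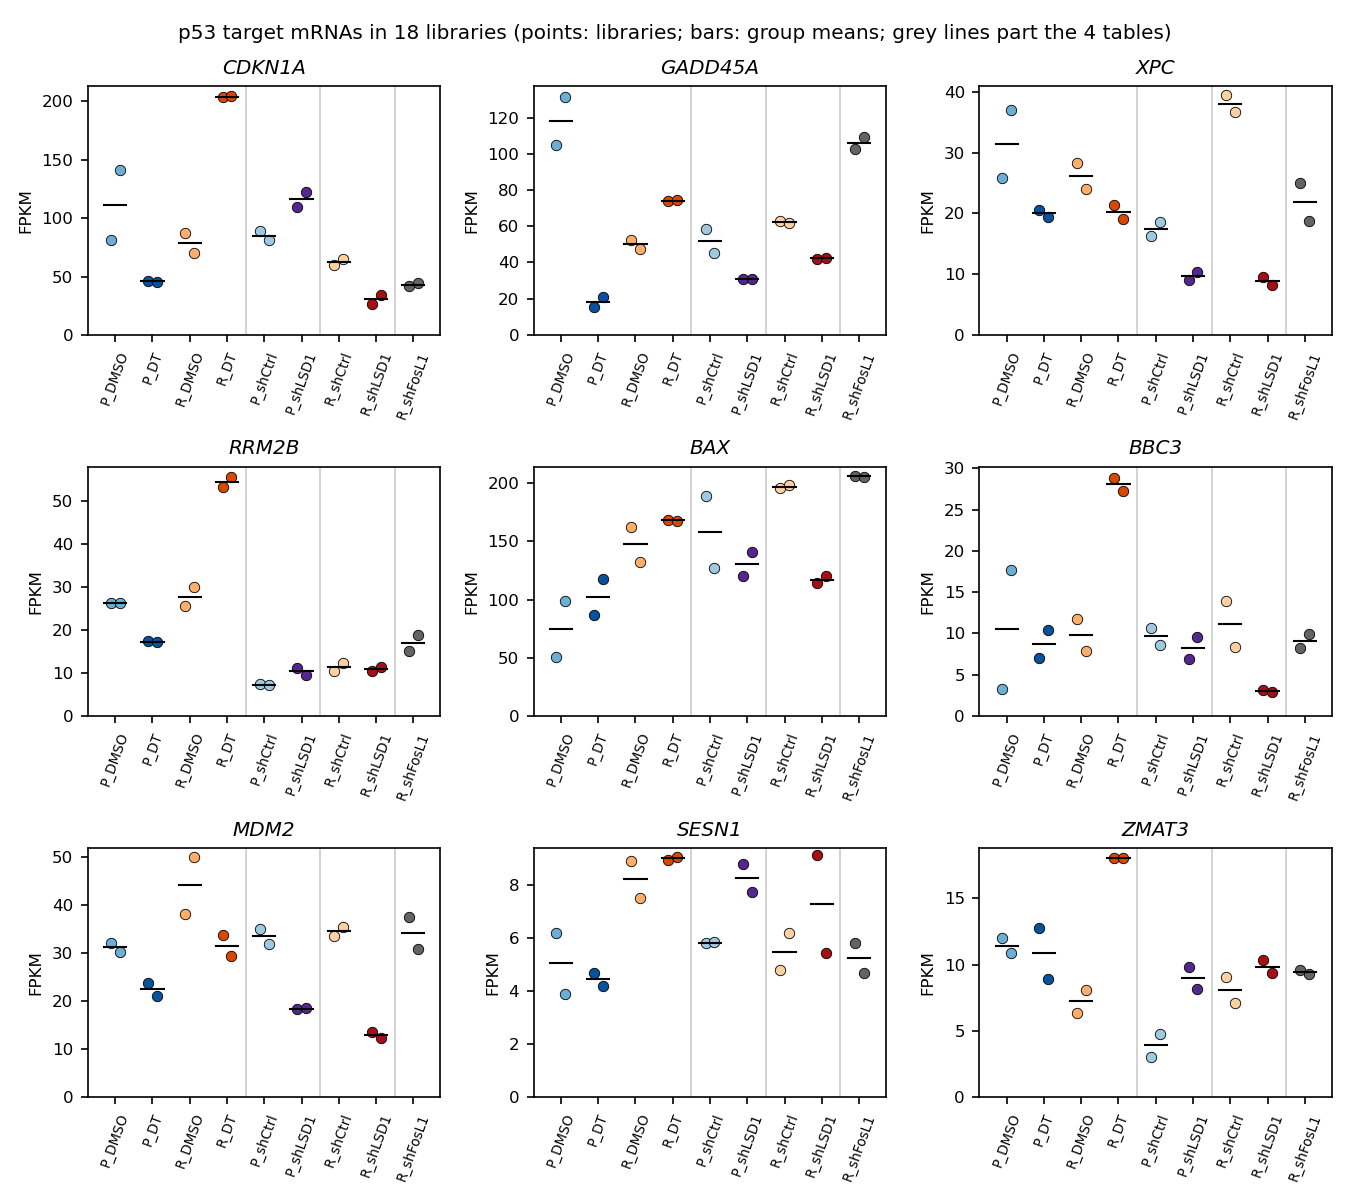
FPKM of each of the 9 p53 targets (y axis, linear, from 0) in the 18 libraries, by group (x axis); points are libraries, bars are means of the 2 libraries and grey lines part the 4 tables. CDKN1A, BBC3, RRM2B and ZMAT3 stand highest in R_DT, with CDKN1A at 203 and 204 FPKM there, while MDM2, XPC and BBC3 have their lowest group means in R_shLSD1, at 12.9, 8.90 and 3.02 FPKM.

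Under dabrafenib plus trametinib 3 of the 9 targets were lower in the P line and none was higher. The growth arrest gene GADD45A fell by 2.65 ± 0.18 on the log2 scale, the p21 gene CDKN1A by 1.21 ± 0.25 and RRM2B, a p53-induced subunit of ribonucleotide reductase, by 0.58 ± 0.13. All changes in this account are on the log2(FPKM+1) scale, ± standard error from limma, and a gene counts as changed at a Benjamini-Hochberg adjusted p below 0.05 over all genes tested. Of 17190 genes tested 22.5% passed in this comparison, 12.8% higher and 9.67% lower. Cell type markers moved as well: 4 of 5 tested melanocytic markers rose, among them DCT (4.10 ± 0.21), S100B (2.91 ± 0.19) and MITF (1.96 ± 0.29), as did 2 of 3 fibroblast markers, LUM (2.74 ± 0.20) and COL1A1 (1.08 ± 0.30). The summed melanocytic markers were at 157 and 201 FPKM in P_DMSO and 430.4 and 452 FPKM in P_DT, and mitochondrial genes made up 7.27% and 7.86% against 9.62% and 10.5% of FPKM. Their part in the target values was not tested.

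GADD45A encodes a small stress protein that binds proliferating cell nuclear antigen and stress kinases. It was at 105 and 132 FPKM in P_DMSO and at 15.3 and 20.8 FPKM in P_DT, which is 6.29-fold lower (adjusted p = 0.00034). The libraries of the 2 groups lay far apart, and the call held in every alternative run. P_DMSO also stood above the other control groups for this gene, at a mean of 118 FPKM against 51.7 FPKM in P_shCtrl, 49.96 FPKM in R_DMSO and 62.3 FPKM in R_shCtrl, a comparison partly across tables with no test. CDKN1A was at 81.4 and 141 FPKM in P_DMSO and at 45.9 and 45.7 FPKM in P_DT, or 2.31-fold lower (adjusted p = 0.018). RRM2B was at 26.2 and 26.3 FPKM in P_DMSO and at 17.4 and 17.2 FPKM in P_DT, or 1.49-fold lower (adjusted p = 0.023). Both genes were lower in each P_DT library than in either P_DMSO library. Their calls were lost without P_DT replicate 1 (adjusted p = 0.095 for CDKN1A and 0.11 for RRM2B), without P_DT replicate 2 (0.096 and 0.11) and when only these 2 groups were fitted (0.10 and 0.11).

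The other 6 targets did not pass in P. The DNA damage sensor XPC, which starts nucleotide excision repair, was at 25.9 and 37.1 FPKM in P_DMSO and 20.6 and 19.5 FPKM in P_DT (-0.60 ± 0.20, adjusted p = 0.069), and MDM2 was at 32.2 and 30.2 against 23.8 and 21.1 FPKM (-0.46 ± 0.17, adjusted p = 0.10). For both genes the groups did not overlap, as for 5 of the 9 targets and 60.2% of all genes tested, and 5 of the 9 and 37.4% of all genes had an unadjusted p below 0.05. Without P_DMSO replicate 1, XPC passed (adjusted p = 0.014), and it also passed after quantile normalization (0.024). BAX, the pore-forming effector of mitochondrial apoptosis, was at 51.0 and 98.6 FPKM in P_DMSO and 86.3 and 117 FPKM in P_DT (0.50 ± 0.31, adjusted p = 0.29). BBC3, which encodes the BH3-only activator PUMA, was at 3.28 and 17.7 FPKM in P_DMSO and 6.99 and 10.4 FPKM in P_DT (0.10 ± 0.63, adjusted p = 0.94). The P_DMSO libraries differed so much for BBC3 that they enclosed both P_DT libraries, and without P_DMSO replicate 2 BBC3 (1.16, adjusted p = 0.027) and BAX (0.97, 0.015) both passed as higher. SESN1, a stress-induced inhibitor of mTORC1 signalling (-0.13, 95% interval -0.66 to 0.41), and ZMAT3, a zinc finger protein that binds RNA and acts on splicing (-0.09, interval -0.59 to 0.41), had overlapping libraries.

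In the R line the same drugs raised 3 of the 9 targets and lowered none, where 6.48% of all genes tested passed, 3.65% higher and 2.83% lower. CDKN1A rose by 1.37 ± 0.25 (adjusted p = 0.029), ZMAT3 by 1.22 ± 0.21 (0.023) and RRM2B by 0.95 ± 0.13 (0.012). CDKN1A was at 87.2 and 70.2 FPKM in R_DMSO and at 203 and 204 FPKM in R_DT, or 2.59-fold higher. ZMAT3 was at 6.34 and 8.11 FPKM in R_DMSO and at 18.02 and 18.05 FPKM in R_DT, or 2.33-fold higher. RRM2B was at 25.6 and 29.9 FPKM in R_DMSO and at 53.3 and 55.4 FPKM in R_DT, or 1.93-fold higher. Each of these genes was higher in both R_DT libraries than in either R_DMSO library. The 3 calls were lost in each of the 4 fits that left out 1 library of these groups (adjusted p of 0.12 to 0.18 for CDKN1A, 0.10 to 0.14 for ZMAT3 and 0.071 to 0.10 for RRM2B).

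Of the remaining targets BBC3 had the largest difference under the drugs in R, from 11.7 and 7.84 FPKM in R_DMSO to 28.9 and 27.3 FPKM in R_DT. Its change of 1.46 ± 0.63 did not pass (adjusted p = 0.22) in the fit of all 8 libraries, which takes in the wide P_DMSO spread, and it passed when the R groups were fitted alone (0.034). GADD45A was at 52.7 and 47.3 FPKM in R_DMSO and 73.8 and 74.6 FPKM in R_DT (0.56 ± 0.18, adjusted p = 0.12, and 0.044 with the R groups alone). The groups did not overlap for any of the 9 targets, nor for 60.9% of all genes tested, and 5 of the 9 and 24.1% of all genes had an unadjusted p below 0.05. MDM2 was at 38.3 and 50.1 FPKM in R_DMSO against 33.7 and 29.3 FPKM in R_DT (-0.46 ± 0.17, adjusted p = 0.16), a value opposite in sign to those of CDKN1A and RRM2B. XPC (-0.35, 95% interval -0.82 to 0.12), BAX (0.19, -0.54 to 0.93) and SESN1 (0.12, -0.41 to 0.66) did not pass. Cell type markers moved in R as well: 1 of 3 fibroblast markers rose, COL1A1 (1.72 ± 0.30), and 1 of 2 endothelial markers, CDH5 (2.63 ± 0.25). The summed endothelial markers were at 0.298 and 0.620 FPKM in R_DMSO and 7.13 and 7.82 FPKM in R_DT. None of 5 melanocytic markers passed. The part of these markers in the target values was not tested.

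The drug change was then compared between the lines by an interaction term, the change in R minus the change in P. It passed above 0 for 4 of the 9 targets and below 0 for none, where 13.9% of all genes tested passed, 6.64% above and 7.24% below. The term was 3.22 ± 0.26 for GADD45A (adjusted p = 0.0013), 2.58 ± 0.36 for CDKN1A (0.0077), 1.53 ± 0.18 for RRM2B (0.0047) and 1.31 ± 0.30 for ZMAT3 (0.033). CDKN1A and RRM2B thus fell in P and rose in R. For GADD45A and ZMAT3 only one line's change passed, the fall in P and the rise in R. The terms of GADD45A, CDKN1A and RRM2B passed in each of the 8 fits that left out 1 library, and that of ZMAT3 in 3 of the 8, failing without either R_DT library, either R_DMSO library or P_DT replicate 2 (adjusted p of 0.072 to 0.11). For MDM2 the term was -0.01 ± 0.24, with a 95% interval from -0.58 to 0.57, so the values of MDM2 were lower under the drugs by the same 0.46 in each line. The term was 0.25 (interval -0.41 to 0.92) for XPC, 0.25 (-0.51 to 1.01) for SESN1, -0.31 (-1.35 to 0.74) for BAX and 1.36 (-0.75 to 3.47) for BBC3. For BBC3 it reached 2.43 without P_DMSO replicate 1 (adjusted p = 0.011). The median term over all genes tested was -0.16.

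**Figure D2:**
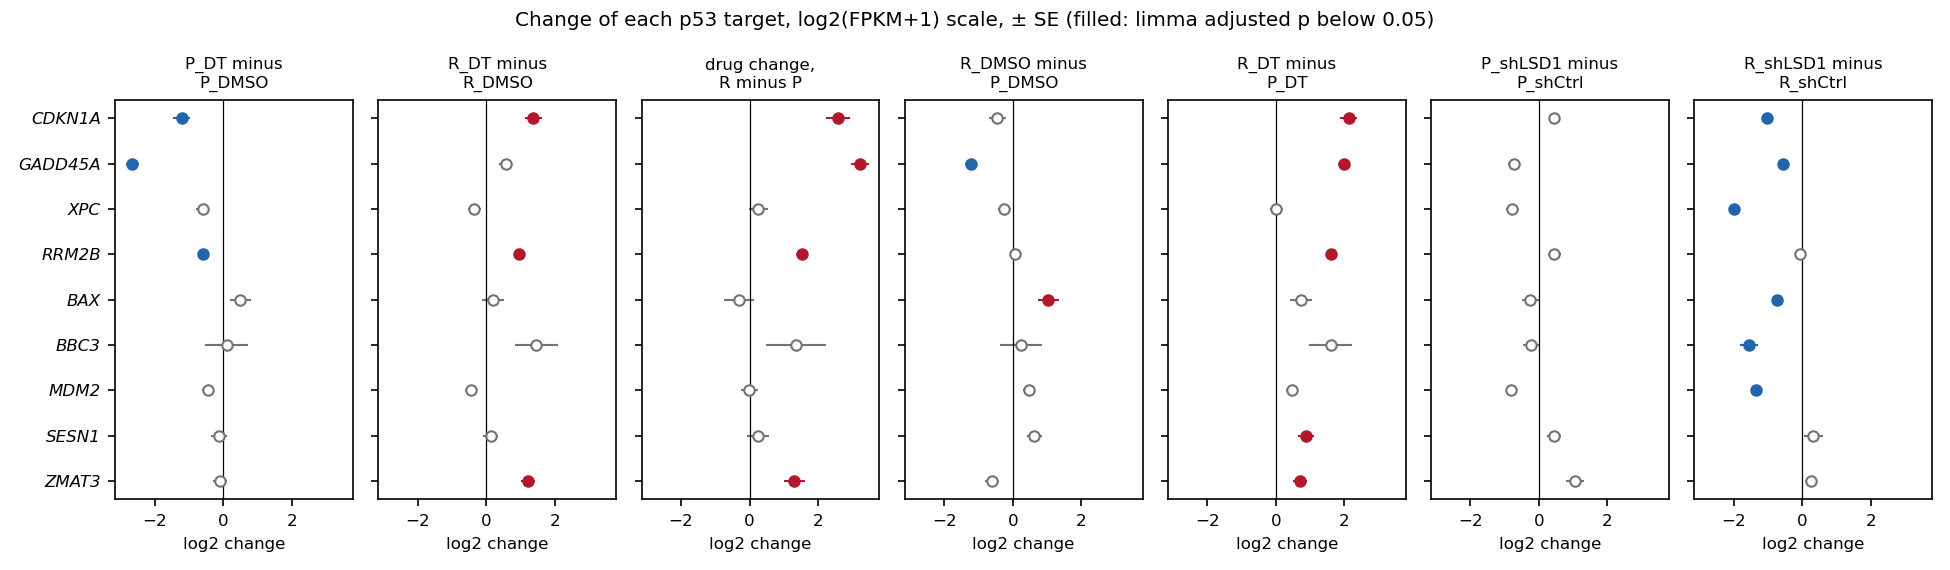
Change of each p53 target on the log2(FPKM+1) scale (x axis) in 7 comparisons (panels), with horizontal bars of ± 1 standard error; filled points passed at a limma adjusted p below 0.05 (blue lower, red higher) and open points did not. CDKN1A and RRM2B are blue under the drugs in P and red in R. With the LSD1 hairpin 6 genes are blue in R, where 21.8% of all genes tested passed. None is filled with the hairpin in P, where 3.42% of all genes passed. The difference in hairpin change between the lines was not tested.

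Between the lines under vehicle, 1 target was lower in R and 1 was higher, where 27.6% of all genes passed, 16.2% higher and 11.5% lower. GADD45A, at 105 and 132 FPKM in P_DMSO against 52.7 and 47.3 FPKM in R_DMSO, was lower in R by 1.22 on the log2 scale (-1.22 ± 0.18, adjusted p = 0.0042). Its means with the control hairpin ran the other way, at 51.7 FPKM in P_shCtrl and 62.3 FPKM in R_shCtrl. Those groups stand in separate tables, and no test was made between them. BAX, at 51.0 and 98.6 against 162 and 133 FPKM, was 2.05-fold higher (1.04 ± 0.31, adjusted p = 0.048). The GADD45A call held in every alternative run, all of them against P_DMSO. That of BAX was lost in all of them (adjusted p of 0.051 to 0.21) but the fit without P_DMSO replicate 2. CDKN1A (-0.45, 95% interval -1.05 to 0.15) and RRM2B (0.07, -0.24 to 0.38) did not pass, and their libraries overlapped between the lines. The value for CDKN1A rested on the P_DMSO libraries, at -0.85 without replicate 1 (adjusted p = 0.0089) and -0.06 without replicate 2 (0.80), and it passed narrowly after quantile normalization (-0.67, 0.0499). MDM2 (0.48 ± 0.17, adjusted p = 0.082), SESN1 (0.63 ± 0.22, 0.081) and ZMAT3 (-0.60 ± 0.21, 0.074) did not pass, with libraries that did not overlap. This held for 5 of the 9 targets and for 60.8% of all genes tested, and 5 of the 9 and 39.7% of all genes had an unadjusted p below 0.05. SESN1 passed without P_DMSO replicate 1 (0.91, adjusted p = 0.017).

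Under the drugs 5 targets were higher in R and none lower, where 37.6% of all genes passed, 18.6% higher and 19% lower. CDKN1A was 4.38-fold (2.13 ± 0.25, adjusted p = 0.0011), GADD45A 3.99-fold (1.996 ± 0.18, 0.00041) and RRM2B 3.03-fold (1.60 ± 0.13, 0.00024) higher in R_DT than in P_DT. These 3 calls held in every alternative run. SESN1, with 4.68 and 4.19 FPKM in the P_DT and 8.94 and 9.07 FPKM in the R_DT libraries (0.88 ± 0.22, adjusted p = 0.021), lost its call in each fit that left out 1 library (0.076 to 0.11). ZMAT3 (0.71 ± 0.21, adjusted p = 0.036) lost its call without R_DT replicate 1 (0.14), without R_DT replicate 2 (0.14) and without P_DT replicate 2 (0.18). For XPC the P_DT libraries (20.6 and 19.5 FPKM) lay within the range of the R_DT libraries (21.4 and 19.1 FPKM), and the interval of its difference ran from -0.45 to 0.48. The groups did not overlap for the other 8 targets and for 75.4% of all genes tested, and 7 of the 9 and 47.7% of all genes had an unadjusted p below 0.05. In the vehicle and drug comparisons between lines the melanocytic marker sum differed as well, and so did single markers. Under vehicle 2 of 5 tested melanocytic markers were lower in R, SOX10 (-7.33 ± 0.17) and S100B (-3.31 ± 0.19), and MITF (1.86 ± 0.29) was higher. Under the drugs 3 of 5 were lower and 0 higher. All 3 tested fibroblast markers were higher in R in both comparisons. The leukocyte marker CD68 was also higher (1.31 ± 0.30 under vehicle, 1.54 ± 0.30 under the drugs). The part of these markers in the results was not tested.

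The LSD1 hairpin lowered 6 of the 9 targets in the R line and raised none, where 21.8% of all 14293 genes tested passed, 9.42% higher and 12.4% lower. The DNA damage sensor XPC fell by 1.98 ± 0.12, the PUMA gene BBC3 by 1.56 ± 0.26, MDM2 by 1.36 ± 0.11, CDKN1A by 1.02 ± 0.13, BAX by 0.75 ± 0.06 and GADD45A by 0.55 ± 0.07. The genes that fell thus include the feedback ligase, the cell cycle inhibitor and both pro-apoptotic genes. RRM2B, SESN1 and ZMAT3 did not pass.

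XPC was at 39.4 and 36.7 FPKM in R_shCtrl and at 9.53 and 8.27 FPKM in R_shLSD1, or 3.95-fold lower (adjusted p = 0.0019). Its overlapping neighbour LSM3, on the opposite strand, was at 19.8 and 17.6 FPKM in R_shCtrl and 18.7 and 18.6 FPKM in R_shLSD1. The other opposite-strand neighbours were lower in R_shLSD1 with XPC, AC093495.1 at 16.4 and 11.1 against 4.13 and 6.70 FPKM and AC090004.1 at 3.79 and 4.71 against 0.727 and 0.709 FPKM. How many of these reads come from bases shared with XPC was not measured. MDM2 was at 33.6 and 35.5 FPKM in R_shCtrl and at 13.5 and 12.3 FPKM in R_shLSD1, or 2.56-fold lower (adjusted p = 0.0029). The fall of MDM2 and XPC left each R_shLSD1 library far below both controls. Over the same libraries the pseudogene AC025423.2, which lies inside MDM2 on its strand, went from 25.6 and 22.5 to 4.93 and 11.98 FPKM, and on the opposite strand AC025423.4 went from 13.1 and 17.1 to 4.88 and 8.39 FPKM and CPM from 3.41 and 0.685 to 9.04 and 3.81 FPKM. CDKN1A was at 59.97 and 64.6 FPKM in R_shCtrl and at 26.8 and 34.0 FPKM in R_shLSD1, or 2.03-fold lower (adjusted p = 0.0081).

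BAX was at 196 and 199 FPKM in R_shCtrl and at 114 and 120.0 FPKM in R_shLSD1, or 1.68-fold lower (adjusted p = 0.0026). BBC3 was at 13.9 and 8.40 FPKM in R_shCtrl and at 3.20 and 2.85 FPKM in R_shLSD1, or 2.95-fold lower (adjusted p = 0.016). GADD45A was at 62.8 and 61.8 FPKM in R_shCtrl and at 41.8 and 42.6 FPKM in R_shLSD1, or 1.47-fold lower (adjusted p = 0.0089). In all 3 genes the groups did not overlap, as for 7 of the 9 targets and 64.4% of all genes tested, although the BBC3 controls differed widely from each other. An unadjusted p below 0.05 was found for 6 of the 9 targets and 37.2% of all genes. With 2 libraries a group these calls depended on each library. GADD45A (adjusted p of 0.055 to 0.079) and BBC3 (0.056 to 0.087) lost theirs in each of the 4 fits that left out 1 library. CDKN1A (0.082 and 0.084), MDM2 (0.055 in each) and BAX (0.055 and 0.053) lost theirs without R_shCtrl replicate 1 and without R_shCtrl replicate 2, and XPC lost its call without R_shCtrl replicate 1 (0.053).

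The 3 targets that did not pass had small differences or wide spread. RRM2B was at 10.4 and 12.3 FPKM in R_shCtrl and 10.4 and 11.5 FPKM in R_shLSD1 (-0.05, 95% interval -0.42 to 0.32). ZMAT3 was at 9.05 and 7.12 against 10.3 and 9.34 FPKM (0.26, -0.17 to 0.69). SESN1 was at 4.77 and 6.18 against 9.13 and 5.44 FPKM (0.33, -0.35 to 1.01), with overlapping libraries. The lower ends of the RRM2B and ZMAT3 intervals, -0.42 and -0.17, lie above the estimates of the 6 called genes. The interval of GADD45A (-0.74 to -0.37) overlaps that of RRM2B, and no test was made between genes.

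In the P line no target passed with the LSD1 hairpin, where 3.42% of 14729 genes passed, 2.2% higher and 1.22% lower. By limma 5 of the 9 (CDKN1A, MDM2, GADD45A, XPC and ZMAT3) had an unadjusted p below 0.05, as did 24.6% of all genes tested, and no other tool was run. The libraries of the groups did not overlap for 7 of the 9 targets and for 54.4% of all genes tested. MDM2 was at 35.1 and 32.0 FPKM in P_shCtrl and 18.3 and 18.5 FPKM in P_shLSD1 (-0.83 ± 0.15, adjusted p = 0.0504, and 0.040 after quantile normalization). XPC was at 16.2 and 18.7 against 9.09 and 10.4 FPKM (-0.78 ± 0.18, adjusted p = 0.078), and GADD45A at 58.5 and 45.0 against 30.8 FPKM in both libraries (-0.72 ± 0.18, adjusted p = 0.087). These 3 genes are among the 7 without overlap, and their differences had the sign of the calls made in R.

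CDKN1A had the opposite sign in the P line, at 89.0 and 80.9 FPKM in P_shCtrl and 109.6 and 123 FPKM in P_shLSD1 (0.45, 95% interval 0.04 to 0.86, adjusted p = 0.18). ZMAT3 went from 3.01 and 4.79 to 9.78 and 8.14 FPKM (1.04 ± 0.26, adjusted p = 0.088), RRM2B from 7.35 and 7.17 to 11.2 and 9.47 FPKM (0.45 ± 0.19, 0.22) and SESN1 from 5.80 and 5.83 to 8.77 and 7.73 FPKM (0.44 ± 0.19, 0.23). These are the other 4 genes without overlap, and none of them passed. BAX was at 189 and 127 against 120.2 and 141 FPKM (-0.25, interval -0.86 to 0.36) and BBC3 at 10.7 and 8.62 against 6.84 and 9.52 FPKM (-0.22, -0.80 to 0.36), with overlapping libraries. Markers of other cell types moved in the same comparison: the fibroblast marker LUM rose from 5.35 and 2.46 to 35.3 and 45.97 FPKM (3.14 ± 0.33), DCN rose by 1.69 ± 0.27 and the keratinocyte marker KRT14 by 1.58 ± 0.26. The summed fibroblast markers were at 8.47 and 6.73 FPKM in P_shCtrl and 45.6 and 52.9 FPKM in P_shLSD1, and mitochondrial genes made up 8.24% and 7.65% against 13.3% and 11.4% of FPKM. In R the fibroblast sums were 23.3 and 38.1 FPKM against 40.1 and 31.7 FPKM, and the mitochondrial share 12.98% and 13.9% against 15.5% and 16.8%. Of 3 tested fibroblast markers in R, 1 passed as higher and 0 as lower. This was LUM, from a mean of 4.05 to 17.7 FPKM (1.88 ± 0.21). The melanocytic marker MITF rose by 0.58 ± 0.11 in R and the leukocyte marker CD68 fell by 0.49 ± 0.08. Their part in the target values was not tested. The 2 hairpin tables were made and fitted separately, so the difference in hairpin change between lines was not tested.

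**Figure D3:**
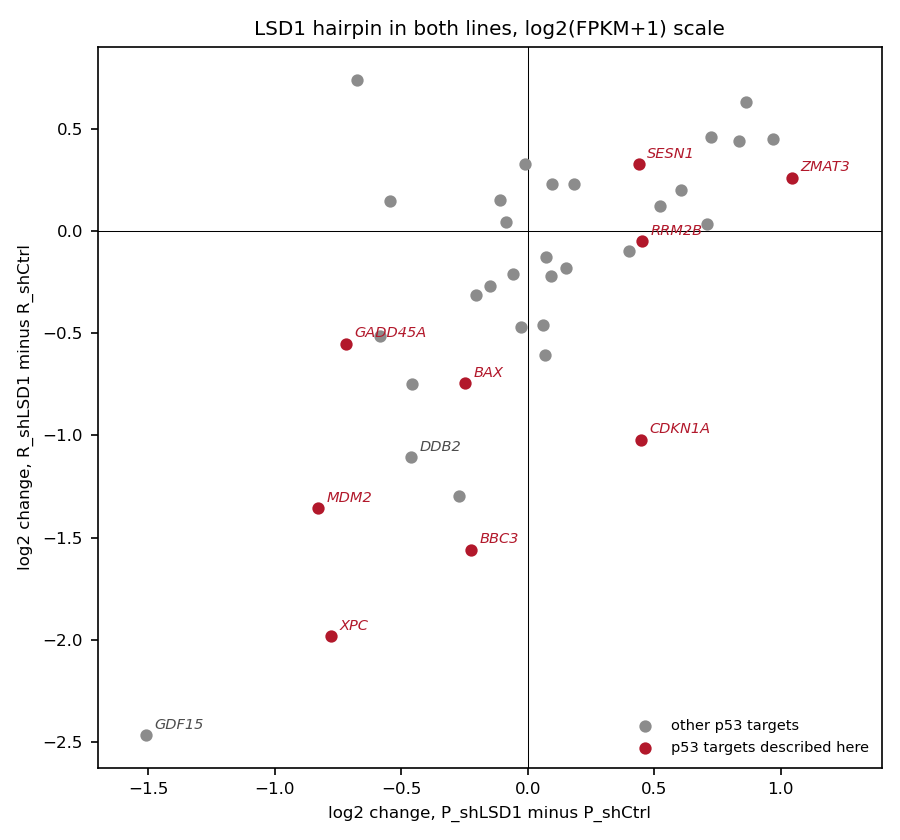
Change with the LSD1 hairpin on the log2(FPKM+1) scale in P (x axis) and in R (y axis) for the 9 p53 targets (red, named) and for other p53 targets tested in both lines (grey, GDF15 and DDB2 named); lines mark 0. CDKN1A lies at 0.45 in P and -1.02 in R, and XPC, MDM2, BBC3, BAX and GADD45A lie below 0 in both.

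The FOSL1 hairpin was read by levels only, since its libraries stand in a table without controls. FOSL1 was at 36.2 and 38.3 FPKM in R_shFosL1 against 109 and 104 FPKM in R_shCtrl. In R_shFosL1 CDKN1A was at 42.1 and 44.2 FPKM and XPC at 25.0 and 18.8 FPKM, between the R_shLSD1 and R_shCtrl libraries of each gene. GADD45A was at 102 and 109 FPKM, above all 4 libraries of the R hairpin table. MDM2 (37.5 and 30.9 FPKM), BBC3 (8.28 and 9.92) and SESN1 (5.80 and 4.67) overlapped the R_shCtrl libraries in range. BAX (206 FPKM in both), RRM2B (15.2 and 18.8) and ZMAT3 (9.56 and 9.28) lay above both R_shCtrl libraries. No test was made between tables.

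Beyond these 9 genes, 34 other known p53 targets were read as a list. In P under the drugs, 10 of the 33 tested were lower and 4 higher, with a median of 0.01 against 0.11 over all genes tested. GDF15, a stress cytokine, went from 133 and 306 FPKM in P_DMSO to 0.610 and 1.14 FPKM in P_DT (-6.77 ± 0.37, adjusted p = 0.00018), the BH3-only gene PMAIP1 from 138 and 105 to 11.9 and 12.1 FPKM (-3.22 ± 0.18) and the death receptor gene TNFRSF10B from 71.2 and 76.0 to 28.7 and 29.9 FPKM (-1.30 ± 0.12). In R, 7 of 33 rose and 0 fell, with a median of 0.26 against -0.03, among them TP53I11 (2.19 ± 0.36), TRIM22 (1.49 ± 0.20) and the autophagy-linked TP53INP1 (1.07 ± 0.19). The interaction term passed above 0 for 12 of 33 and below 0 for 1, against 6.64% and 7.24% of all genes. Its median was 0.40, and the genes with the smallest adjusted p were GDF15 (8.72 ± 0.53), PMAIP1 (3.71 ± 0.26) and TNFRSF10B (1.65 ± 0.17). Of all genes 9.67% fell and 12.8% rose in P, and 2.83% fell and 3.65% rose in R. Under the drugs in P, called genes of this list thus went in both directions.

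With the LSD1 hairpin in R, 5 of 30 other p53 targets fell and 3 rose, with a median of -0.11 against -0.05 over all genes, of which 12.4% fell and 9.42% rose. The counts of the list thus lay near those of all genes, and the genes named next are its called members with the smallest adjusted p. GDF15 went from 206 and 189 FPKM to 33.3 and 36.6 FPKM (-2.47 ± 0.08, adjusted p = 0.00094), and DDB2, which works with XPC in recognising ultraviolet damage, from 29.1 and 26.7 to 12.6 and 12.2 FPKM (-1.11 ± 0.11, 0.0045). RPS27L, a ribosomal protein homologue, fell by 0.47 ± 0.06 (0.0066). The DDB2 window holds a p53 consensus match with 0 mismatches (chr11:47214979-47214999, plus strand), shown because DDB2 is the gene of this list with a full match.
DDB2: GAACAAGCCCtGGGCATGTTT
The lower case base is the spacer. In P, 1 of 29 fell, GDF15, from 21.8 and 14.7 to 4.78 and 6.64 FPKM (-1.51 ± 0.26, adjusted p = 0.048), and 0 rose. Over all genes tested there 1.22% fell and 2.2% rose.

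Genes that p21 represses through the DREAM complex, which shuts down cell cycle transcription, were read beside CDKN1A. Under the drugs 9 of 19 fell and 1 rose in P (median -0.62), where CDKN1A fell, and 11 of 19 fell and 0 rose in R (median -0.94), where CDKN1A rose. The shares over all genes tested were 9.67% lower and 12.8% higher in P, and 2.83% lower and 3.65% higher in R. In P the ubiquitin-conjugating gene UBE2C fell by 1.28 ± 0.13 and the topoisomerase gene TOP2A by 1.09 ± 0.14, while MYBL2, a B-MYB transcription factor, rose by 1.35 ± 0.24. In R the cyclin CCNB1 fell by 1.44 ± 0.18 and UBE2C and the anaphase activator CDC20 by 1.16 each. Of the 19 genes 9 did not pass in P and 8 did not pass in R, and no test was made of the list as a whole. Under vehicle all 19 were higher in R than in P (median 1.36), and under the drugs 16 were (median 1.11), against 16.2% and 18.6% of all genes. The vehicle result is measured against P_DMSO, where CDC20 of this list stood low beside P_shCtrl, R_DMSO and R_shCtrl. That comparison is partly across tables, with no test, and was not made here for the whole list. With the LSD1 hairpin in R, where CDKN1A fell, 7 of 19 fell, such as CCNB1 (-0.53 ± 0.06) and TOP2A (-0.44 ± 0.07), and the phosphatase gene CDC25A rose from 38.5 and 37.9 to 66.0 and 66.4 FPKM (0.78 ± 0.07). For the hairpin in R 12.4% of all genes fell and 9.42% rose. In P 0 of 19 passed with the hairpin, against 3.42% of all genes.

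**Figure D4:**
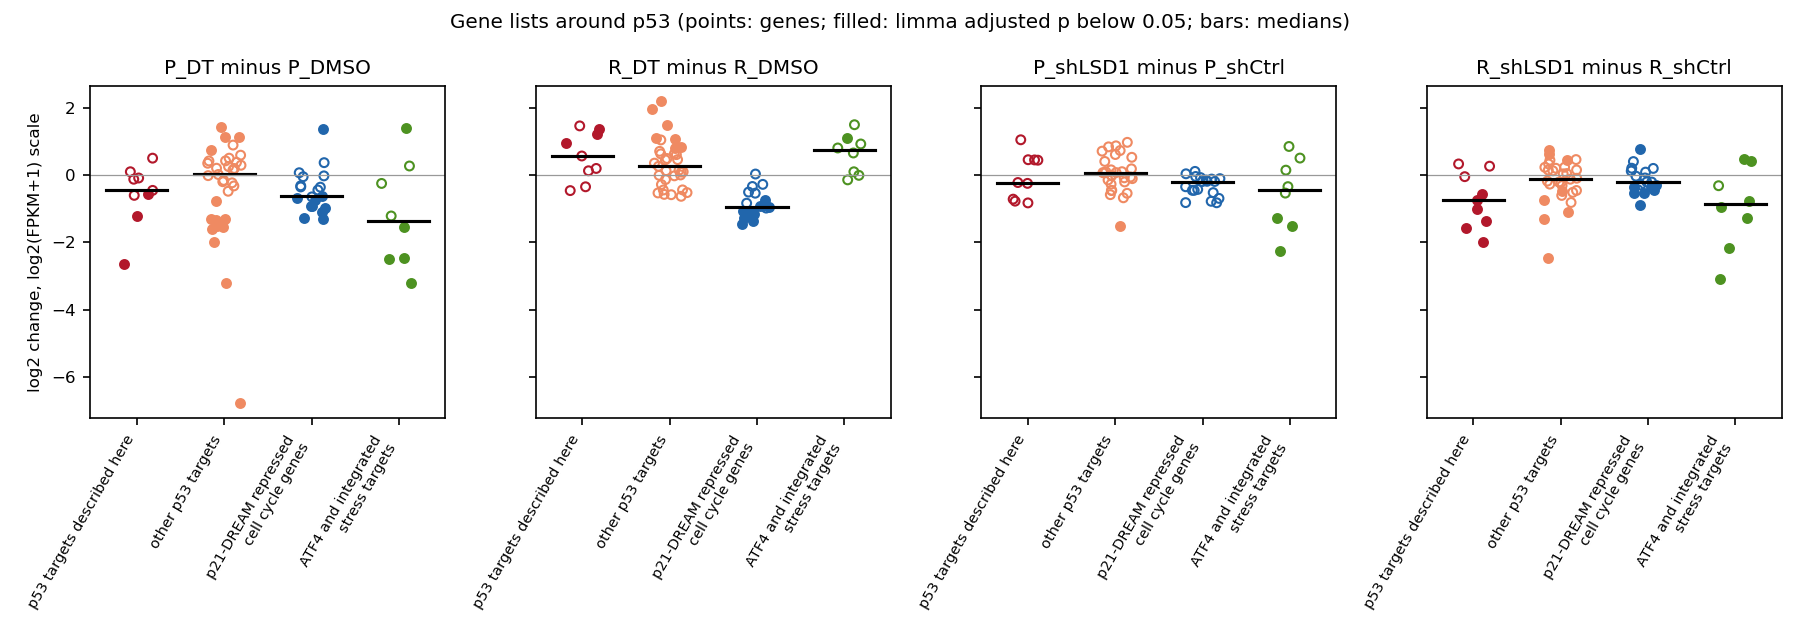
Change on the log2(FPKM+1) scale (y axis) of each tested gene in 4 lists (x axis), for the drugs and the LSD1 hairpin in each line (panels); filled points passed at a limma adjusted p below 0.05 and bars are list medians. The p21-DREAM cell cycle genes have medians of -0.62 in P and -0.94 in R under the drugs, and the 9 p53 targets have medians of -0.46 and 0.56.

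Of 20 regulators of p53, 4 were lower and 1 was higher in P_DT than in P_DMSO. In this comparison 9.67% of all genes tested were lower and 12.8% higher, 22.5% in either direction. The regulators that fell included the checkpoint kinases CHEK1 (-1.01 ± 0.15) and CHEK2 (-0.77 ± 0.18) and RPL5 (-1.03 ± 0.15), a ribosomal protein that binds MDM2. In R 0 of 20 passed, with 6.48% as the background. With the LSD1 hairpin in R 4 fell and 0 rose, where 12.4% of all genes fell and 9.42% rose, 21.8% in either direction. Among the 4 were the deacetylase SIRT1 (-0.80 ± 0.17), the phosphatase PPM1G (-0.59 ± 0.07) and the DNA damage kinase PRKDC (-0.36 ± 0.07). Under vehicle 5 of 20 were higher and 2 lower in R than in P, where 16.2% of all genes were higher and 11.5% lower. USP7 (0.76 ± 0.12, adjusted p = 0.0054) and PRKDC (0.81 ± 0.15, 0.0088) were higher in R. MDM4, the MDM2 homologue that restrains p53, was lower (-0.99 ± 0.21, 0.014). In P 0 of 20 passed with the LSD1 hairpin, with 3.42% as the background.

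Paralogs of the 9 genes were read beside them. RRM2, the subunit of ribonucleotide reductase that dividing cells use in place of RRM2B, fell in R under the drugs (-1.46 ± 0.16) where RRM2B rose. CDKN1C rose there (1.09 ± 0.22), as CDKN1A did. SESN3 rose in P (2.37 ± 0.24) and SESN2 fell (-1.28 ± 0.28) where SESN1 did not pass, and the p27 gene CDKN1B rose (0.91 ± 0.18) where CDKN1A fell. With the LSD1 hairpin in R, SESN2 fell by 0.83 ± 0.10 and RRM1 by 0.56 ± 0.07. BAK1, the other pore-forming effector, rose (0.64 ± 0.13) where BAX fell. Counts over the paralog list were 2 higher and 1 lower of 8 in P and 1 and 1 of 8 in R under the drugs, and 1 higher and 2 lower of 6 with the hairpin in R. In the same order, 22.5%, 6.48% and 21.8% of all genes tested passed in either direction.

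Targets of ATF4, the factor of the integrated stress response, were read because BBC3, GADD45A and GDF15 are known to answer to stress factors as well. Under the drugs 4 of 8 fell and 1 rose in P (median -1.38), with TRIB3 at -3.20 ± 0.14, ASNS at -2.50 ± 0.22 and DDIT3 at -2.46 ± 0.21. In R 1 of 8 rose, DDIT3 (1.09 ± 0.21), and 0 fell (median 0.73). Over all genes tested 9.67% fell and 12.8% rose in P, and 2.83% fell and 3.65% rose in R. The interaction term passed above 0 for 4 of 8 and below 0 for none (median 2.05), against 6.64% and 7.24% of all genes. With the LSD1 hairpin 3 of 8 fell in P, CHAC1 (-2.25 ± 0.25), ASNS (-1.52 ± 0.18) and TRIB3 (-1.27 ± 0.16), where 1.22% of all genes fell. In R 5 fell and 2 rose, where 12.4% of all genes fell and 9.42% rose. CHAC1 was at -3.09 ± 0.15, DDIT3 at -2.17 ± 0.15 and ATF4 itself at -0.76 ± 0.06 in R. BBC3 passed in 1 of these comparisons, with the hairpin in R, and GADD45A passed for the drugs in P, in the interaction and with the hairpin in R. The part of the stress genes in those changes was not tested.

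Over the 8 drug and vehicle libraries the genes whose log2(FPKM+1) values ran most like those of CDKN1A, of 10610 genes of mean 5 FPKM or more, were RPL11 (Pearson r = 0.985), NUP210 (0.984), AC243919.1 (0.982), RPL14 (0.980) and SREBF2 (0.976). Among the other targets RRM2B was closest (0.915), followed by BBC3 (0.762), GADD45A (0.757), ZMAT3 (0.605), SESN1 (0.535), BAX (0.443), MDM2 (0.276) and XPC (0.157). These coefficients describe 8 libraries that form 4 groups and share library size scaling, and no test was made of them.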

How the data were processed

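The authors deposited 4 tables of FPKM, made per the submitters' processing notes with CASAVA 1.4, HISAT2 2.1.0 and Cufflinks 2.2.1 on hg38. The strand setting and the library kit of each sample are not given in the sources used here. The labels describe a directional kit and an rRNA-depletion kit without assigning samples. Deposited FPKM are not counts, so no count model was run. All 18 FPKM columns were assigned and 0 were left over. Genes with a failed status (1 in the drug table, 4 in the FOSL1 table) and 4940 blank rows of the R hairpin table were left out. Of 60594 identifiers 58519 are in GENCODE 29.

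Log2(FPKM+1) was compared with limma 3.58.1 (eBayes, trend and robust) in R 4.3.3, keeping genes that reached 1 FPKM in 2 or more libraries, with Benjamini-Hochberg adjustment over all genes tested and calls at an adjusted p below 0.05. One fit covered all 8 drug libraries, and each LSD1 hairpin table had a fit of its own. Contrasts stay within a table. Alternatives were a pseudocount of 0.1, no filter on low values, quantile normalization, the replicate number as a block, fits of 2 groups only and fits without each library. The limma script was tested on simulated data. Tables and figures were made in Python 3.11.15 with pandas 2.3.3, matplotlib 3.10.9, scipy 1.17.1 and numpy 2.4.6.

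The 9 genes and all lists were chosen with earlier results of these data known. The text names all 9 genes, KDM1A, FOSL1 and, per list and comparison, up to 3 called genes with the smallest adjusted p, and the 5 genes most like CDKN1A. KIF23, a listed gene, is not used here. The genes that overlap a target and the DDB2 match were added after their values were seen. Level and depth statements rest on FPKM alone: the depth is unknown where no whole-fragment steps were clear.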

Additional observations from a re-analysis of the deposited data

Results flagged for a closer look

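The drug change differed between the lines, by the interaction term of limma, for 4 of the 9 targets, all above 0. Of all genes tested 13.9% passed, 6.64% above 0 and 7.24% below. The change in R minus the change in P was 2.58 for CDKN1A, 3.22 for GADD45A, 1.53 for RRM2B and 1.31 for ZMAT3 on the log2 scale. The ZMAT3 term was the less stable and did not pass with the replicate block (limma adjusted p = 0.060). With the LSD1 hairpin, both P_shLSD1 libraries lay above both P_shCtrl libraries for CDKN1A (0.45) and both R_shLSD1 libraries lay below both R_shCtrl libraries (-1.02), a difference that was not tested because the tables were made separately.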

How the results depend on the processing

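None of the called targets changed sign in any alternative run. Of the member changes under alternatives, 494 stayed on their side of the threshold, 58 were no longer past it and 15 newly passed. Without each library in turn, the count of targets called ranged from 1 to 5 (main 3) for the drugs in P, was 0 (main 3) for the drugs in R with 3 to 5 targets at an unadjusted p below 0.05, and ranged from 1 to 3 (main 2) between the lines under vehicle, 3 to 4 (main 5) between the lines under the drugs, 3 to 5 (main 4) for the interaction and 0 to 4 (main 6) for the LSD1 hairpin in R, and was 0 for the hairpin in P. The count of all genes called ranged from 1361 to 6136 (main 3861), 66 to 107 (1114), 2275 to 5850 (4751), 3768 to 3867 (6462), 713 to 4556 (2385) and 0 to 903 (3118) in the same order, and from 4 to 336 (504) for the hairpin in P. Leaving out a library leaves a lone sample that is assumed to vary like the other groups. The 0 came without R_shCtrl replicate 1, with 4011 genes at an unadjusted p below 0.05. With only the 2 groups fitted, 1 target and 932 genes passed for the drugs in P, and 5 targets and 1587 genes for the drugs in R. Between the lines, 1 target and 2043 genes passed under vehicle in such a fit. Under the drugs 8 targets did, where 37.6% of all genes had passed in the main fit. Between the lines under vehicle 1 target passed with a pseudocount of 0.1, with no filter on low values and with the replicate block. For the hairpin in P, no gene passed without the filter (0, with 4265 at an unadjusted p below 0.05), and 1 target and 879 genes passed after quantile normalization. The cause was not tested. The median over all genes tested was 0.11 for the drugs in P and -0.16 for the interaction, and -0.0024 and -0.025 after quantile normalization.

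Replicate numbers did not pair the drug libraries (correlations of replicate differences from -0.16 to 0.069), and with the replicate block 625 genes passed for the drugs in R, where CDKN1A lost its call (adjusted p = 0.056), as did ZMAT3 in the interaction (0.060) and between the lines under the drugs (0.059) and BAX between the lines under vehicle (0.054). With the P_DMSO numbers crossed, an alternative chosen after seeing the data, 1 target and 4414 genes passed between the lines under vehicle. No paired analysis was possible for the hairpin tables because their titles share fewer than 2 replicate numbers.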

Other observations

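Some genes of the lists differed in level between the untreated or control-hairpin libraries of the P line in different tables, which were made separately, so the values are given side by side with no test. RRM2 was at 16.9 and 18.8 FPKM in P_DMSO and at 160 and 155 FPKM in P_shCtrl, CDC20 at 35.5 and 41.9 against 222 and 204 FPKM, and RRM2B at 26.2 and 26.3 against 7.35 and 7.17 FPKM. In the R line RRM2 was at 152 and 194 FPKM in R_DMSO and at 193 and 198 FPKM in R_shCtrl, CDC20 at 180 and 164 against 198 and 198 FPKM, and RRM2B at 25.6 and 29.9 against 10.4 and 12.3 FPKM. RRM2B was thus higher in the drug table's controls of both lines, while RRM2 and CDC20 stood low in P_DMSO alone of these 4 control groups. GADD45A was at 105 and 132 FPKM in P_DMSO, 58.5 and 45.0 FPKM in P_shCtrl, 52.7 and 47.3 FPKM in R_DMSO and 62.8 and 61.8 FPKM in R_shCtrl, and TRIB3 at 239.3 and 272, 98.96 and 90.1, 52.7 and 46.6, and 112 and 98.1 FPKM in the same order, so both stood high in P_DMSO alone. GDF15 was at 133 and 306, 21.8 and 14.7, 321 and 250.3, and 206 and 189 FPKM, and stood low in P_shCtrl alone. The drug changes in P, the interaction terms and the differences between the lines under vehicle are all measured against P_DMSO for these genes. The part of the library kit in these levels was not tested.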
